A study of Mus musculus with 8 samples.

Results

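The genes described here encode 10 surface antigens of neural cells, followed in cultured mouse neural stem/precursor cells with and without Nfia transduction: Thy1, Cd44, Cd24a, Prom1, Ncam1, L1cam, Cd9, Cd81, Cd63 and Alcam. All 10 were found among the 23997 gene symbols listed in each library, and all 10 were among the 12537 genes tested, those whose values averaged 1 FPKM or more. FPKM counts fragments relative to transcript length and to the size of the library, so it can be compared between genes. The members were selected by name with their levels in these control and Nfia libraries already known. Their differences between the groups are therefore given as a description, with no test. Other genes of the same families and pathways were tested.

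The control group was 3 RNA-seq libraries of cells labelled control, and the Nfia group 3 libraries of cells transduced with Nfia, a transcription factor gene of the nuclear factor I (NFI) family. Both groups were primary adherent cultures from the telencephalon of ICR mouse embryos, at E11.5 by the growth protocol and E11 by the stage label, grown with bFGF, a fibroblast growth factor, at 10 ng/mL and sampled 3 days after transduction. The labels name neither the vector nor what the control cells received, nor whether libraries of 1 group stem from different cultures. The p-values thus measure the spread among these libraries alone, and that spread may be technical. Nfia itself was 19.8 to 23.9 FPKM in the control libraries and 69.0 to 103.5 FPKM in the Nfia libraries. A Flag and an IgG ChIP sample of the series were not used here.

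Surface antigens are proteins of the outer cell membrane that antibodies can reach on living cells, and many carry a CD (cluster of differentiation) name. In the developing brain they are used to sort precursors from young neurons and glia. The members belong to several structural kinds. Thy1, Ncam1, L1cam and Alcam encode adhesion proteins with immunoglobulin folds, and Thy1 and Cd24a encode proteins held by a glycosylphosphatidylinositol (GPI) anchor. Cd9, Cd81 and Cd63 encode tetraspanins, which span the membrane repeatedly and gather integrins and other partners in membrane domains. Prom1 encodes the prominin CD133 of membrane protrusions and Cd44 a receptor of hyaluronan.

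Total FPKM per library was 474010 to 511700. The files hold no counts, and the absolute depth is unknown. The steps between values of genes below 0.3 FPKM gave depths of 0.760 to 1.11 relative to control 1, the lowest in Nfia 3 and the highest in Nfia 1. Precursor and neuron markers were both abundant: Sox2 was 222 to 247 FPKM over the 6 libraries, Nes 88.0 to 155 FPKM and the neuronal tubulin gene Tubb3 291 to 651 FPKM. Summed over 6 genes each, astrocyte markers were 184 to 285 FPKM and oligodendrocyte lineage markers 146 to 404 FPKM over the libraries. Markers of microglia, blood, endothelial, mesenchymal and erythroid cells were low, with none at 0 in all 6 libraries. Those of microglia and blood cells summed over 6 genes to 1.60 to 1.65 FPKM in control and 0.777 to 1.57 with Nfia, and those of endothelial cells over 6 genes to 3.28 to 4.61 and 2.01 to 2.95 FPKM, with no overlap between groups in either. The endothelial marker Cldn5, the only 1 of these 12 genes tested, fell (log2 difference -0.61, limma adjusted p = 0.0121). Erythroid markers summed over 7 genes to 1.01 to 3.39 and 1.02 to 1.47 FPKM.

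The members ranged over 3 orders of magnitude in control cells. Cd24a was the most abundant at 473 ± 39.0 FPKM (SD, n = 3), above at least 99.1% of the genes tested in each control library. It was followed by Cd81 (171 ± 8.91), Cd63 (98.2 ± 7.33), Ncam1 (40.8 ± 2.06), Cd9 (34.7 ± 3.16), Prom1 (19.4 ± 1.71), Alcam (13.4 ± 0.977), Cd44 (11.3 ± 0.539) and L1cam (10.1 ± 0.811 FPKM). Thy1 was last at 0.419 ± 0.0178 FPKM. Each gene lay above the next in all 3 control libraries, although the ranges of Cd44 and L1cam over the libraries overlapped.

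**Figure D1:**
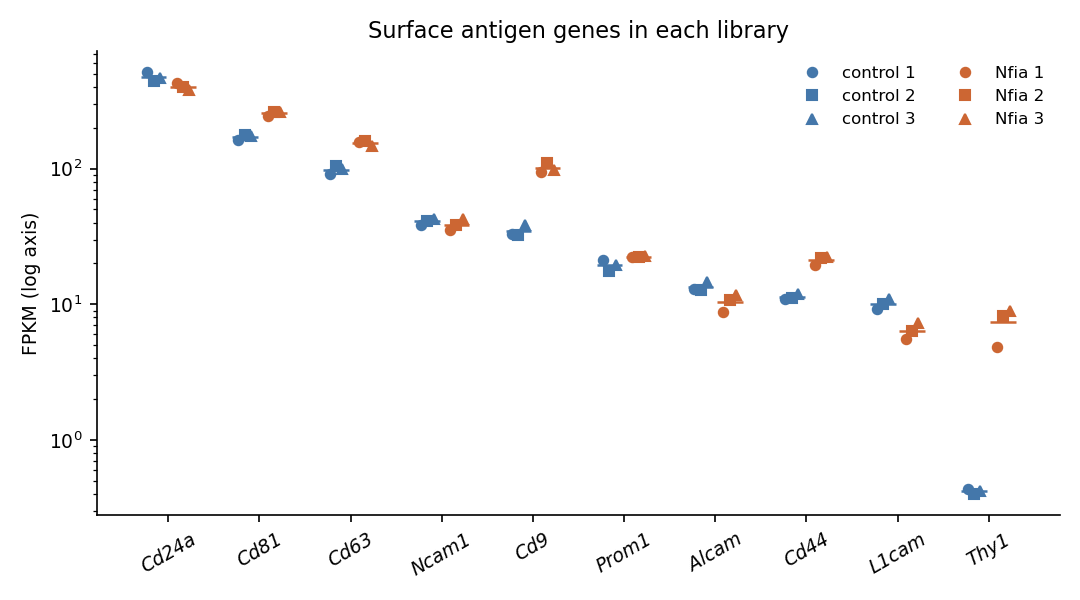
FPKM of the 10 surface antigen genes in the 3 control and 3 Nfia libraries, on a log axis, ordered by the control mean; points are libraries and short lines are group means. Thy1 lies near 0.4 FPKM in the control libraries and between 4.84 and 8.98 FPKM in the Nfia libraries, and Cd9 moves from below Ncam1 to above it.

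In Nfia cells the order differed. Cd24a, Cd81 and Cd63 kept the first 3 places at 399.8 ± 24.4, 256 ± 8.48 and 154 ± 6.41 FPKM. Cd9 followed at 101 ± 7.45 FPKM, above Ncam1 at 38.6 ± 3.73. Prom1 (22.5 ± 0.266) and Cd44 (21.3 ± 1.68) overlapped, and so did Alcam (10.4 ± 1.51) with Thy1 (7.35 ± 2.21) and Thy1 with L1cam (6.38 ± 0.820 FPKM). The 10 members summed to 848 to 894 FPKM in control and 999 to 1033 FPKM in Nfia libraries. Cd24a held 51.9% to 57.7% of that sum in control and 37.7% to 41.8% with Nfia, while the 3 tetraspanins held 31.9% to 37.2% and 48.8% to 51.1%.

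The groups did not overlap for 9 of the 10 members, 6 with the Nfia libraries above (Thy1, Cd44, Prom1, Cd9, Cd81 and Cd63) and 3 with them below (Cd24a, L1cam and Alcam). Over all genes tested the groups did not overlap for 47.7%, with Nfia above in 24.7% and below in 22.9%. Since the members were picked on this contrast, nothing is read from their counts. The fit over all genes called 31.3% of the genes tested, 16.1% higher and 15.1% lower, which is the background for the lists of other genes. The median log2 difference was 0.39 over the members and 0.01 over all genes tested.

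**Figure D2:**
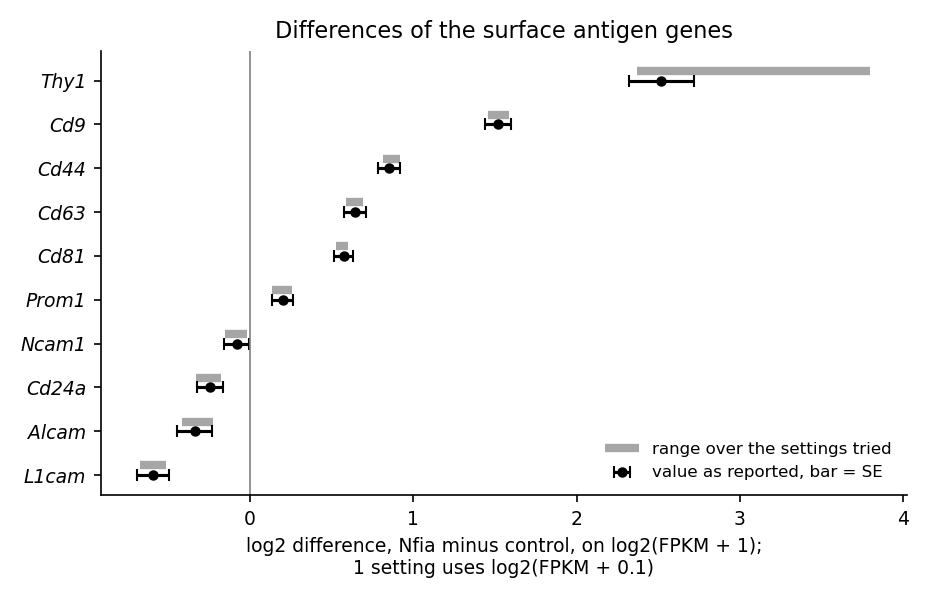
Difference of each member between Nfia and control libraries in log2(FPKM + 1), above 0 where Nfia is higher; black points with bars give the value and its SE, and grey bars the range over the other settings tried. Thy1 and Cd9 have the largest differences and L1cam the lowest, and each member keeps its sign over the settings shown.

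Thy1, the GPI-anchored antigen CD90 known from neurons, T cells and fibroblasts, stood furthest apart. It was 0.434, 0.399 and 0.423 FPKM in the control libraries and 4.84, 8.24 and 8.98 FPKM in the Nfia libraries. Every control library lay below 0.5 FPKM and even the lowest Nfia library was 11.1-fold above the highest control. The ratio of means was 17.6, and the difference in log2(FPKM + 1), the scale of all log2 differences given, was 2.52 (SE 0.20). Adding 1 shrinks the change of a gene so low in control, and with a pseudocount of 0.1 the difference was 3.80. Thy1 passed the filter on low values only through the Nfia group. Its control values lay in the lowest 1.48% of the genes tested and its Nfia values at the 23.1 to 36.1 percentile, so it was still a gene of low to middle level after transduction. The gene lies on chromosome 9 from 44043384 to 44048579 (build GRCm38).

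Thy1 is also a marker of mesenchymal cells, and markers of those cells differed between libraries. In bulk RNA fewer cells of a type and less RNA per cell cannot be told apart. Summed over 6 genes, mesenchymal and meningeal markers were 5.72, 14.3 and 14.9 FPKM in the control libraries and 4.46, 16.4 and 15.4 FPKM in the Nfia libraries. The collagen gene Col1a1 was 0.889, 2.95 and 3.23 FPKM in control and 1.09, 4.98 and 5.16 FPKM with Nfia. Nfia 1, the Nfia library with the lowest Thy1, also had the lowest marker sum. In the control group the library with the lowest sum, control 1, had the highest Thy1 (0.434 FPKM, against 0.399 and 0.423). None of the 6 markers passed the test between groups by limma. Neuron markers, another known site of Thy1, summed to 1702 to 1783 FPKM in control and to 1074 to 1095 FPKM with Nfia. The part of mesenchymal cells or neurons in the Thy1 values was not tested.

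**Figure D3:**
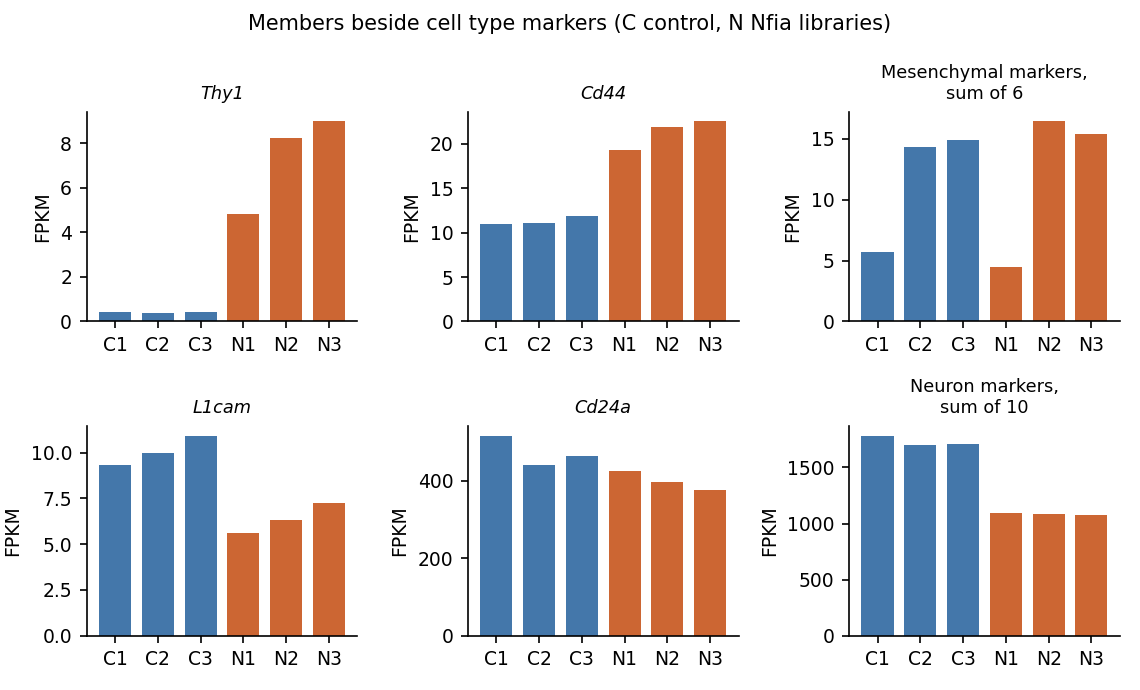
Levels in FPKM in the control (C1 to C3) and Nfia (N1 to N3) libraries of 4 members beside the summed mesenchymal and neuron markers, each panel with its own axis from 0. The mesenchymal sum is low in C1 and N1, Thy1 and Cd44 separate the groups, and the neuron sum is lower in all 3 Nfia libraries, as L1cam and Cd24a are.

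On log2(FPKM + 1), 805 of the 12536 other genes tested had a Pearson correlation with Thy1 above 0.95 and 666 one below -0.95, a description over 6 libraries that form 2 groups. The closest were Trim9 (1.00), a ubiquitin ligase gene, Nr3c1 (0.999), the glucocorticoid receptor gene, and Ngfr (0.999), the p75 neurotrophin receptor gene. Ngfr was 1.97, 2.00 and 1.85 FPKM in control and 13.1, 19.6 and 22.2 FPKM with Nfia. Ngfr is named here for its correlation with Thy1, so its low value in Nfia 1 within the group is no separate likeness.

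The Nfia libraries fell in the same order as their Nfia levels, with Nfia 1 lowest and Nfia 3 highest, for 6 members: Thy1, Cd44, Ncam1, L1cam, Cd81 and Alcam. Cd24a fell in the reverse order. Of all genes tested, 22.6% had the first order and 22.2% the reverse, and the relative depth ran opposite to the Nfia level, at 1.11, 0.911 and 0.760. L1cam and Alcam were thus highest in the library with most Nfia although both were lower in the Nfia group than in control. The part of Nfia level or depth in these orders was not tested.

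Cd44, the hyaluronan receptor found on astrocyte precursors and on many migrating cells, was 10.9, 11.05 and 11.9 FPKM in control and 19.4, 21.9 and 22.5 FPKM with Nfia. The groups did not overlap, at a ratio of 1.88 and a log2 difference of 0.85 (SE 0.07). Within each library the ratio of Cd44 to Alcam was 0.846 ± 0.0229 in control and 2.05 ± 0.145 with Nfia. The files give 1 value for Cd44, whose transcripts are known to be spliced in many forms, so the standard and variant forms are not separated. The gene spans chromosome 2 from 102811141 to 102901669.

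Glial markers were mixed beside Cd44 and Cd9, both known from glial precursors. The astrocyte markers Slc1a3 and Aldoc rose (log2 differences 0.59 and 0.63, limma adjusted p = 0.000488 and 0.00121), while Gfap and Aldh1l1 fell (-0.51 and -0.50, limma adjusted p = 0.0308 and 0.00265). Aqp4 and S100b stayed below 1 FPKM and were not tested. Both had lower means with Nfia, at 0.577 and 0.389 FPKM for Aqp4 and 0.686 and 0.491 FPKM for S100b, control first. Of 6 oligodendrocyte lineage markers, Olig2, which precursors also express, rose by 1.45 (limma adjusted p = 0.00011), Pdgfra and Mbp fell, and 3 did not pass. The part of these cell types in the levels of Cd44 and Cd9 was not tested.

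A list of genes that make, cleave or bind hyaluronan, or that link CD44 to a ligand or to actin, held calls in both directions. Of 21 listed, 11 were tested, and 2 were higher and 2 lower (18.2% each, against 16.1% and 15.1% of all genes), at a median log2 difference of -0.05. Msn, which encodes moesin, a linker of CD44 to actin, rose from 75.1 ± 6.01 to 113 ± 6.40 FPKM (limma log2 difference 0.58, SE 0.07, adjusted p = 0.0018). The other linker genes Ezr (-0.13) and Rdx (0.14) did not pass (limma adjusted p = 0.205 and 0.079). Has3, a hyaluronan synthase gene, fell from 4.61 ± 0.497 to 2.03 ± 0.251 FPKM (log2 difference -0.89, limma adjusted p = 0.00146), and Tmem2, a hyaluronidase gene of the cell surface, from 18.7 ± 0.784 to 12.3 ± 0.518 FPKM (-0.57, limma adjusted p = 0.000626). Hmmr, a hyaluronan-binding protein gene of dividing cells, was at the threshold (log2 difference 0.31, limma adjusted p = 0.0486) and its call ended without any 1 of the libraries except Nfia 1 (adjusted p up to 0.143). Spp1, which encodes the CD44 ligand osteopontin, was 10.9 ± 1.51 and 10.2 ± 0.904 FPKM and did not pass.

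The tetraspanin members were all higher with Nfia. Cd9, a tetraspanin of the cell surface and of extracellular vesicles, was 33.1, 32.5 and 38.3 FPKM in control and 95.2, 109 and 98.2 FPKM with Nfia. The lowest Nfia library was 2.49-fold above the highest control, the ratio of means was 2.91 and the log2 difference 1.52 (SE 0.08). Cd81, a partner of Cd9 in the same membrane domains, was 161, 178 and 175 FPKM in control and 246, 259.6 and 261 FPKM with Nfia (ratio 1.49, log2 difference 0.57, SE 0.06). Cd63, a tetraspanin of late endosomes and exosomes, was 90.6, 105 and 98.9 FPKM in control and 156, 159 and 147 FPKM with Nfia (ratio 1.57, log2 difference 0.64, SE 0.07). Neither gene had overlapping groups, yet both differed less than Cd9.

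The proportions among the 3 also differed. Within each library the ratio of Cd9 to Cd81 was 0.202 ± 0.0179 in control and 0.395 ± 0.0234 with Nfia, and that of Cd9 to Cd63 was 0.354 ± 0.0402 and 0.656 ± 0.0399. Cd63 to Cd81 was 0.573 ± 0.0167 in control and 0.603 ± 0.0371 with Nfia, with overlapping values. Cd9 lies on chromosome 6 from 125460266 to 125494760, Cd81 on chromosome 7 from 143052750 to 143067930 and Cd63 on chromosome 10 from 128896231 to 128912822. Summed, the 3 genes were 285 to 315 FPKM in control and 497 to 528 FPKM with Nfia.

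RefSeq start-site windows of GRCm38.p6 were found for 7 of the 10 members, in 9 windows of 300 bases. Thy1, Cd24a and Ncam1 had no entry. The 250 bases before a RefSeq start of each of the 3 tetraspanin genes are shown because these genes differed in 1 direction together. The Cd9 and Cd81 starts are the outer 5′ ends of the genes, whereas the Cd63 start lies 13114 bases inside the span of that gene given above, and its outer start is not covered. Capitals mark GC boxes (GGGCGG, either strand), the sites of SP-family factors. The windows lie at chr6:125494761-125495010 on the minus strand for Cd9, chr7:143052500-143052749 on the plus strand for Cd81 and chr10:128909095-128909344 on the plus strand for Cd63, each read 5′ to 3′ along the gene.
Cd9: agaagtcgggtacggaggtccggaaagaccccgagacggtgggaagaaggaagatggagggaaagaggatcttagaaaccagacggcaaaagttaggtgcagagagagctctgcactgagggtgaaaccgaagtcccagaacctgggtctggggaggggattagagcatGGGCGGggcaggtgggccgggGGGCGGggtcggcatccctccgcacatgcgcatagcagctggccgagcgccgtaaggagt
Cd81: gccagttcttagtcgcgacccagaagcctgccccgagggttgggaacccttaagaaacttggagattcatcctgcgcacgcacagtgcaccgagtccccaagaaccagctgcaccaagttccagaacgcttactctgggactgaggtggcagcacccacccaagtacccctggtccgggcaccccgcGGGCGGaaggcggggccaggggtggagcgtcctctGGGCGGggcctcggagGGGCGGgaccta
Cd63: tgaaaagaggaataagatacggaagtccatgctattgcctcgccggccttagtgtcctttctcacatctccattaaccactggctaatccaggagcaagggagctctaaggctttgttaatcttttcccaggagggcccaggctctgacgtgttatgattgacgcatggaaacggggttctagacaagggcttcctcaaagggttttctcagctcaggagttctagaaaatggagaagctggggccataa

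These 3 sequences hold 2, 3 and 0 GC boxes. Over all 32851 windows of 300 bases, 35.7% hold 1 or more. The Cd63 window holds 2 copies of TGACG, the core of cyclic AMP response elements, found on either strand in 20.8% of windows. CpG dinucleotides number 18 in the 300 bases of Cd9, 23 in those of Cd81 and 6 in those of Cd63, against a median of 7 over all windows. The Cd63 values describe the window at the internal start.

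The full NFI palindrome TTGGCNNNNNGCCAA stood in no member window and in 0.0365% of all windows. Its arm, TTGGC, was searched on both strands and includes the longer TTGGCA, which no member window held and 14.1% of all windows did. The arm stood in 2 of the 9 windows, those of Prom1 and Alcam, and in 46.7% of all windows. Both sites are shown with 12 bases on each side and the arm in capitals, Prom1 at chr5:44101791-44101819 (minus strand, the arm on the opposite strand, starting 71 bases before a start that lies 311 bases inside the gene) and Alcam at chr16:52453265-52453293 (minus strand, starting 200 bases before it).
Prom1: caggcacccttaGCCAAcccggggcggag
Alcam: tcccgctcttcaTTGGCcagcgtgtcctg
A match describes letters only, and windows this short leave out enhancers. The 9 windows cover 7 genes and the 2 windows of L1cam overlap, so 2 of 9 is not a share of independent windows. The second Prom1 window, without the arm, is built on a start 7279 bases inside the gene.

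Among 28 other tetraspanin genes, 19 were tested, of which 3 were higher, 3 lower and 13 not called, near the shares of all genes, with a median log2 difference of -0.03. Tspan12, a tetraspanin of Norrin signalling, rose from 26.7 ± 1.70 to 40.01 ± 2.08 FPKM (limma log2 difference 0.57, SE 0.06, adjusted p = 0.00125). Tspan5 (0.25) and Tspan9 (0.36) also rose (limma adjusted p = 0.0241 and 0.0285). Tspan11 fell from 4.33 ± 0.503 to 1.45 ± 0.130 FPKM (-1.12, limma adjusted p = 0.000616), Tspan13 from 111 ± 5.68 to 86.0 ± 2.38 FPKM (-0.37) and Tspan17 from 2.39 ± 0.299 to 1.43 ± 0.294 FPKM (-0.48). The calls of Tspan5 and Tspan9 ended without any 1 library except Nfia 1, and that of Tspan17 on removing control 1 or 3 or Nfia 1 or 2 (adjusted p = 0.0559 to 0.0961). Tspan3 and Tspan7, at 203 ± 5.73 and 127 ± 6.81 FPKM in control, were as abundant as Cd81 and Cd63 and did not pass the test (log2 differences -0.03 and 0.15). Cd151, a laminin-integrin partner, was 33.3 ± 1.53 and 33.0 ± 1.82 FPKM.

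**Figure D4:**
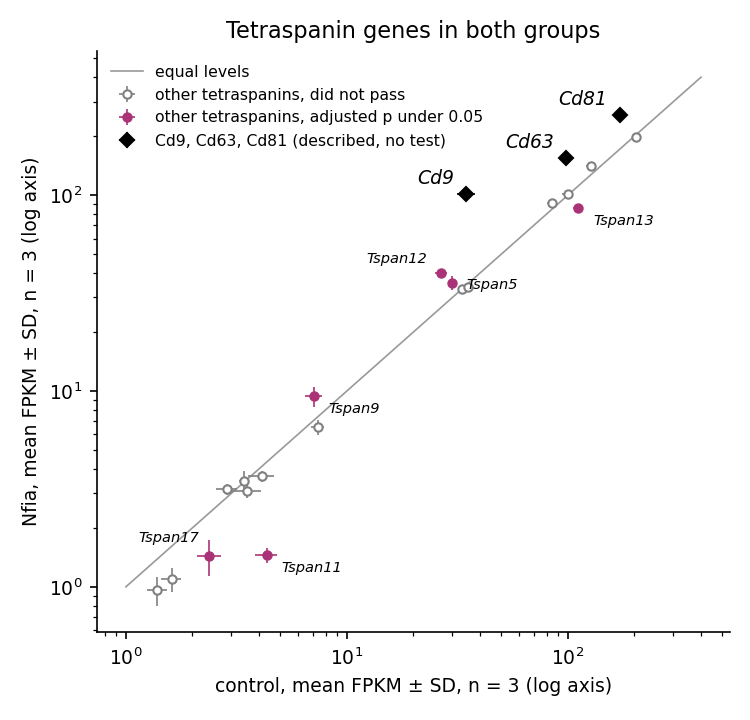
Mean FPKM with SD (n = 3) of tetraspanin genes in control (x) and Nfia (y) libraries, both on log axes, with a line of equal levels. Cd9, Cd63 and Cd81 lie above the line, and of the other 19 tetraspanins tested 3 that passed lie above it and 3 below it.

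Of 11 genes of tetraspanin partners, 10 were tested, of which 2 were higher and 1 lower, against 16.1% and 15.1% of all genes, with a median log2 difference of 0.03. Ifitm3, an interferon-induced membrane protein gene, rose from 17.9 ± 0.697 to 27.5 ± 0.777 FPKM (limma log2 difference 0.59, SE 0.05, adjusted p = 0.000447). Itgb1, the integrin beta 1 gene, rose from 133 ± 3.84 to 149 ± 5.89 FPKM (0.17, limma adjusted p = 0.0363). Ifitm1 fell from 2.88 ± 0.700 to 1.58 ± 0.213 FPKM (-0.58, limma adjusted p = 0.0265). The calls of Itgb1 and Ifitm1 each ended when any of 5 libraries was left out (adjusted p = 0.0551 to 0.117). Itga6, the integrin alpha 6 gene, was 46.7 ± 1.88 and 47.9 ± 1.95 FPKM and did not pass.

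Among the members with immunoglobulin folds other than Thy1, L1cam and Alcam were lower and Ncam1 overlapped. L1cam, a protein of axon growth and bundling, was 9.31, 10.0 and 10.9 FPKM in control and 5.59, 6.31 and 7.23 FPKM with Nfia. The groups did not overlap, at a control to Nfia ratio of 1.58 and a log2 difference of -0.59 (SE 0.10). Alcam (CD166), which binds itself and CD6, was 12.9, 12.7 and 14.5 FPKM in control and 8.74, 10.9 and 11.7 FPKM with Nfia. The highest Nfia library lay just below the lowest control, with a ratio of 1.28 and a log2 difference of -0.34 (SE 0.11). L1cam lies on chromosome X from 73853778 to 73880838 and Alcam on chromosome 16 from 52248996 to 52453081.

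Ncam1, the neural cell adhesion molecule of neurons and precursors, was 38.6, 41.1 and 42.7 FPKM in control and 35.2, 38.2 and 42.6 FPKM with Nfia. The groups overlapped, and the log2 difference of -0.08 (SE 0.08) was of the size of its error. Within each library Ncam1 was 4.05 ± 0.126 times L1cam in control and 6.08 ± 0.199 times with Nfia. The value for Ncam1 does not separate its transmembrane and GPI-anchored forms. The gene lies on chromosome 9 from 49502129 to 49799393.

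Other adhesion genes of the immunoglobulin superfamily were mostly lower where they passed. Of 27 listed and 26 tested, 12 were lower (46.2%) and 2 higher (7.69%), against 15.1% lower and 16.1% higher of all genes, with a median log2 difference of -0.21. Many of these genes are known from neurons, and 9 of 10 neuron markers were lower in the same libraries, with a median log2 difference of -0.58. The part of neuron content in the list was not tested. Cntn6, a contactin gene, fell from 6.84 ± 0.586 to 2.89 ± 0.327 FPKM (limma log2 difference -1.01, SE 0.09, adjusted p = 0.000626). Another contactin gene, Cntn1, fell from 8.33 ± 0.488 to 5.64 ± 0.129 FPKM (-0.49). Cadm4, a gene of glia-axon adhesion, fell from 113 ± 2.94 to 81.0 ± 4.41 FPKM (-0.47). In the L1 family, Nrcam fell from 20.1 ± 0.682 to 15.3 ± 0.532 FPKM (-0.37, limma adjusted p = 0.00212), while Chl1 rose from 4.38 ± 0.708 to 8.49 ± 1.73 FPKM (0.81, limma adjusted p = 0.00929). Ntm, a GPI-anchored neurotrimin gene, also rose (0.52, limma adjusted p = 0.00522). The count of lower genes was 5 without control 3 and 7 without Nfia 2. Cntn5, among the 12 lower genes, passed the filter on low values only through the control group (1.46 FPKM, against 0.717 with Nfia).

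Cd24a, the GPI-anchored heat-stable antigen used to separate young neurons from precursors, was 516, 439.9 and 464 FPKM in control and 425, 397 and 377 FPKM with Nfia. The highest Nfia value was 0.967 of the lowest control value, so the groups were next to each other without overlap. The log2 difference was -0.24 (SE 0.08). With Nfia it still lay above at least 98.9% of the genes tested. In each library Cd24a was 2.77 ± 0.380 times Cd81 in control and 1.57 ± 0.148 times with Nfia. The gene lies on chromosome 10 from 43579169 to 43584265.

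Neuron markers were lower beside L1cam, Cd24a and Alcam. Of the 10 neuron markers tested, 9 were called lower, against 15.1% of all genes, and Rbfox3 did not pass (limma adjusted p = 0.146). The groups did not overlap for Rbfox3, with Nfia below, as for 22.9% of all genes tested. The part of neuron content in the values of these 3 genes was not tested. The precursor markers went both ways: 4 of 8 fell (50%) and 2 rose (25%), against 15.1% and 16.1% of all genes. Sox2 was 222 to 238 FPKM in control and 230 to 247 FPKM with Nfia.

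Prom1 (CD133), a protein of apical and ciliary protrusions used to isolate neural stem cells, was 21.1, 17.7 and 19.6 FPKM in control and 22.5, 22.2 and 22.7 FPKM with Nfia. The groups did not overlap, but the gap was small, with a ratio of 1.15 and a log2 difference of 0.20 (SE 0.07). The spread of Prom1 was 8.81% of the mean in control and 1.18% with Nfia. Its paralog Prom2 was listed at 0 in all 3 control libraries and in Nfia 2 and 3, and at 0.0332 FPKM in Nfia 1. Prom1 lies on chromosome 5 from 43993621 to 44102047.

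The enzymes that add carbohydrates to surface antigens went both ways. Of 12 listed and 11 tested, 3 fell (27.3%) and 2 rose (18.2%), against 15.1% and 16.1% of all genes. St8sia4 and St8sia2, which add polysialic acid to NCAM, fell from 9.52 ± 1.08 to 6.51 ± 0.283 FPKM (limma log2 difference -0.48, SE 0.08, adjusted p = 0.00651) and, for St8sia2, from 25.8 ± 2.16 to 20.0 ± 1.89 FPKM (-0.35, limma adjusted p = 0.0209). For the HNK-1 epitope, a sulfated sugar carried by NCAM and L1, the glucuronyltransferase genes B3gat1 (0.33) and B3gat2 (0.26) rose, and the sulfotransferase gene Chst10 fell (-0.31). The limma adjusted p-values were 0.0082, 0.0256 and 0.00378. The calls of St8sia2 and B3gat2 were lost on removing control 2 or 3 or Nfia 1 or 2 (adjusted p = 0.0619 to 0.0887).

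Genes of GPI anchor synthesis and attachment, on which Thy1 and Cd24a depend, held calls in both directions. Of 28 listed, 26 were tested, 4 were higher (15.4%), 2 lower (7.69%) and 20 not called, at a median log2 difference of 0.01. Of all genes tested, 16.1% were higher and 15.1% lower. Gpaa1 and Pigt, subunits of the enzyme that attaches the anchor, rose by log2 differences of 0.26 and 0.24 (limma adjusted p = 0.00553 and 0.016), as did Pigq (0.19) and Pigm (0.22). Pgap1, which remodels the anchor, fell (-0.38, limma adjusted p = 0.00315), as did Pigx (-0.22). The calls of Pigq, Pigm and Pigx each ended when any of 5 libraries was left out (adjusted p up to 0.134), and that of Pigt ended without control 1 or control 3 (adjusted p = 0.0519 to 0.0557).

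Sheddases, gamma-secretase subunits and TIMP inhibitors act on the cleavage of CD44, L1 and ALCAM from the surface. Of 19 such genes tested, 7 rose (36.8%) and 1 fell (5.26%), against 16.1% and 15.1% of all genes. The median log2 difference was 0.16. Timp4 and Timp1 among the 7, and Timp2, the 1 that fell, encode inhibitors, and no gamma-secretase subunit was called. Timp4, a metalloprotease inhibitor gene, rose from 5.16 ± 0.367 to 17.8 ± 0.956 FPKM (limma log2 difference 1.61, SE 0.07, adjusted p = 9.12e-05). Adam15 rose from 9.27 ± 0.437 to 17.6 ± 2.50 FPKM (0.85), Timp1 from 2.62 ± 0.416 to 5.21 ± 1.14 FPKM (0.77) and Mmp14, a membrane protease that cleaves CD44, from 33.8 ± 1.73 to 43.6 ± 2.08 FPKM (0.36, limma adjusted p = 0.00436). Timp2 fell (-0.24, limma adjusted p = 0.0325), which no longer passed when control 2, control 3, Nfia 1 or Nfia 2 was removed (adjusted p up to 0.106). Adam10, a main sheddase of these antigens, was 50.4 ± 2.70 and 50.5 ± 0.881 FPKM and did not pass. Adam17 (0.22) and Mmp2 (0.95) were among the 7 that rose (limma adjusted p = 0.0206 and 0.0227). Their calls were not followed with libraries left out. Without control 1, 4 genes of the list were higher.

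Other CD-numbered antigens changed in both directions. Of 35 listed and 23 tested, 5 rose (21.7%) and 4 fell (17.4%), against 16.1% and 15.1% of all genes. The median log2 difference was 0.04. Ngfr (CD271), named above, rose by 2.68 (limma adjusted p = 0.000285), followed by the GPI-anchored Cd109 (0.58), the receptor kinase gene Kit (0.47), the sialomucin gene Cd164 (0.28) and Itgb1. Those that fell were the scavenger receptor gene Cd36 (-0.81), the chemokine receptor gene Cxcr4 (-0.66), Pdgfra (-0.64), the receptor gene of oligodendrocyte precursors, and Cd200 (-0.63). Cd36 averaged 1.81 FPKM in control and 0.597 FPKM with Nfia, so it passed the filter on low values only through the control group. Cd200, an immunoglobulin-fold antigen of neurons, was 14.8 to 18.0 FPKM in control and 8.65 to 11.4 FPKM with Nfia (limma adjusted p = 0.00678). The call of Cd109 ended without Nfia 2 (adjusted p = 0.0533) and that of Kit without control 1 or Nfia 2, and the list had 3 genes called higher without control 1 and 2 without Nfia 2. Bsg, the most abundant antigen named from this list, was 231 ± 3.22 and 229 ± 10.3 FPKM and did not pass.

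**Figure D5:**
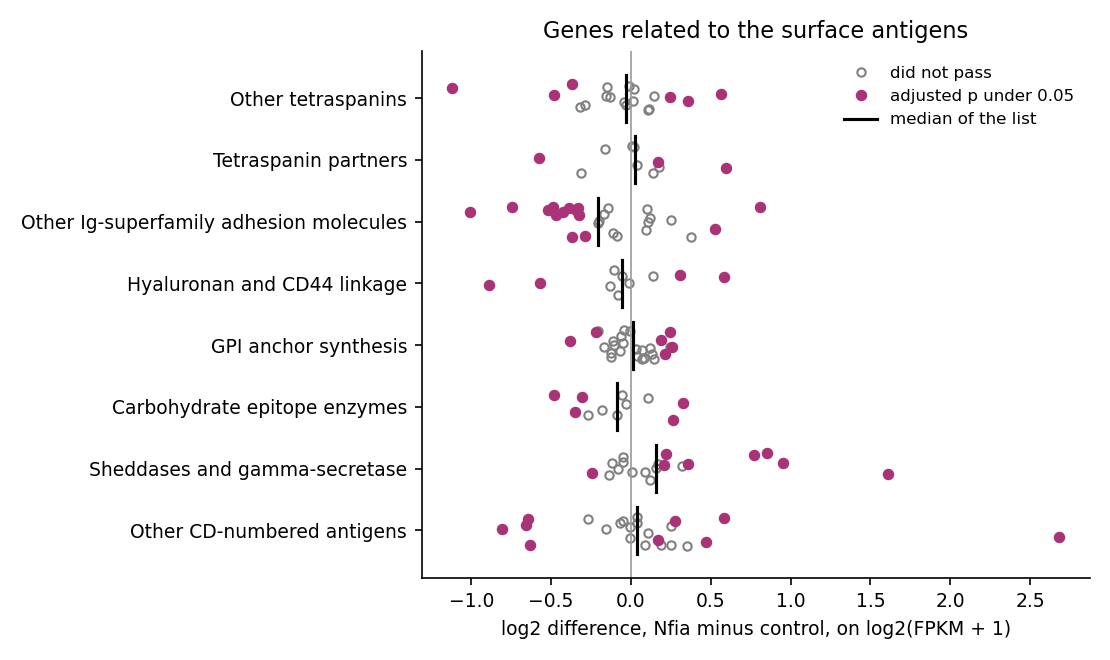
Log2 difference, Nfia minus control, of each tested gene in 8 lists of related genes; filled points passed an adjusted p under 0.05 by limma, open points did not, and bars are list medians. The immunoglobulin-superfamily list has most of its called genes below 0. The list of sheddases, gamma-secretase subunits and TIMP inhibitors has most above 0, and Ngfr is the point furthest to the right.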

How the data were processed

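Poly(A) RNA-seq of 3 control and 3 Nfia libraries was analysed. Per the labels' protocols, libraries were made with a directional kit. The deposited values are FPKM, 1 per gene symbol and library; the unit was inferred from the values and from the tools named, as no header gives it. Cufflinks, Cuffdiff, TopHat, SAMtools, MACS (1.4), Bowtie (1) and the build mm10 are listed per the submitters' processing notes, with no role or order. The sources used here give no annotation, filter, strand setting or handling of shared reads, so reads of close paralogs or antisense genes may be misassigned.

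FPKM values were used without further scaling as log2(FPKM + 1). The 12537 genes averaging 1 FPKM or more over the libraries were fitted with limma 3.58.1 in R 4.3.3 (lmFit, eBayes with a variance trend, two-sided), with Benjamini-Hochberg adjustment over all of them and a threshold of 0.05. With 3 libraries a group, exact permutation of 1 gene could reach no p below 0.1. A run of the fit on simulated normal values checked it under its own assumptions only. Ratios are of mean FPKM.

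The members, the 8 lists and the marker lists were chosen with earlier results of these data known. Named genes are the members, Nfia, Prom2, of each list up to 4 called genes with the smallest adjusted p and those that a count of 5 or fewer rests on, and the 3 genes most correlated with Thy1, passing over predicted genes. Bsg, Adam10, Adam17, Mmp2, Spp1, Ezr, Rdx, Itga6, Cd151, Tspan3 and Tspan7 were named outside that rule, after their values were seen. So were Cntn5, Sox2, Nes, Tubb3, Col1a1, Cldn5, Rbfox3 and the glial markers. Of the list symbols, 2 had no row. Positions and promoter windows are RefSeq, GRCm38.p6, matched by symbol.

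Alternatives were a pseudocount of 0.1, no filter, a mean of at least 5 FPKM, 3 other scalings, other variance models, the replicate block and leaving out each library.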

Additional observations from a re-analysis of the deposited data

How the results depend on the processing

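All 10 members kept the sign of their difference under the 16 alternatives (15 for Thy1, whose mean is below 5 FPKM). Thy1 ranged from 2.37 to 3.80, Cd9 from 1.46 to 1.59, Ncam1 from -0.15 to -0.02 and L1cam from -0.67 to -0.51. Scaling moved the median of all genes by less than 0.02.

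With no filter, 4 hyaluronan genes and 1 GPI gene were lower and 1 carbohydrate enzyme higher. The sheddase and TIMP list then had 0 genes lower by limma (1 at an unadjusted p under 0.05). At a mean of at least 5 FPKM, which tests fewer genes, 1 tetraspanin, 1 hyaluronan gene and 0 partners were lower (0 unadjusted), and 1 carbohydrate enzyme and 3 CD antigens higher. Under upper-quartile scaling and quantile normalization 1 partner and 1 hyaluronan gene were higher, and under the former 1 GPI gene lower. Under median-of-ratios scaling 1 hyaluronan gene was higher. Without a variance trend 5 tetraspanins and 1 GPI gene were lower and 1 hyaluronan gene higher. With library weights 2 partners were lower. Over all genes, the deviations of same-numbered libraries had correlations of 0.0264, -0.00578 and 0.0461. With 3 libraries a group these values cannot decide whether a shared number marks a shared culture. The mesenchymal marker sum was lowest in control 1 and Nfia 1 (5.72 and 4.46 FPKM). With the replicate block 2130 genes were higher and 1916 lower, and 1 partner and 1 hyaluronan gene higher (Itgb1 and Hmmr lost, adjusted p = 0.0574 and 0.0501).

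Leaving out each library gave 1290 to 1625 genes higher and 1251 to 1572 lower, the lowest counts without Nfia 2. Higher counts were 1 to 3 for tetraspanins, 1 to 2 for partners and 1 to 2 for hyaluronan genes. They were 1 to 3 for GPI genes and 1 to 2 for carbohydrate enzymes. For the sheddase and TIMP list they were 4 to 7, and for CD antigens 2 to 5. Lower counts were 0 to 1 for partners (1 to 3 unadjusted where 0) and 5 to 12 for immunoglobulin genes. They were 1 to 2 for GPI genes and 0 to 1 for the sheddase and TIMP list (1 to 2 unadjusted where 0). Of the 43 list genes named by the rule above, 15 lost their call without some library and none changed direction. The cause was not tested. Depth is unknown, so the counting error of low values such as Thy1 in control cannot be given.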
